A study of Mus musculus with 8 samples.

Results

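The genes described here are 10 genes of hepatic lipid droplets and triglyceride turnover. With earlier results of these data known, they were chosen by name and function from the 56884 genes of the count tables. They were the droplet coat and fusion genes Plin2, Plin4, Plin5, Cidec and Cideb, the lipase gene Pnpla2 with the genes of its inhibitors G0s2 and Hilpda, and Dgat1 and Dgat2, whose enzymes carry out the last step of triglyceride synthesis. Poly(A) RNA was sequenced from the livers of 8 mice, 3 of them DIO and 5 DIO + DHA, each mouse giving 1 library, and all 8 libraries carried the same batch number. Every mouse was a C57BL/6J female made obese by a high-fat diet (HFD) with 45% of its energy as lipids, which started at about 2 months of age and lasted 4 months before the mice were divided. The DIO group then stayed on the HFD until 18 months. The DIO + DHA group received, until the same age, an HFD in which a fish oil concentrate replaced 15% by weight of the lipids. This concentrate held 683.4 mg of docosahexaenoic acid (DHA) and 46.7 mg of eicosapentaenoic acid (EPA) per g, so that both n-3 fatty acids and the loss of other dietary fat differ between the groups. The diet of the DIO group was given the same tocopherols, and all mice were fasted overnight before the livers were collected. The comparison asks how hepatic gene expression differs after long DHA supplementation. A lean control group was not analysed here.

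Hepatocytes store triglycerides in droplets, whose surface carries perilipins and CIDE proteins. Perilipins control the access of lipases to the stored fat, and CIDE proteins move lipid from smaller to larger droplets. Droplets grow as the DGAT enzymes join a fatty acid to diacylglycerol, and they shrink as adipose triglyceride lipase, encoded by Pnpla2, releases fatty acids for oxidation or for export in very-low-density lipoprotein (VLDL).

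The libraries held 1723800 to 5690347 counts, with DIO replicate 1 the shallowest. The labelled tissue was borne out by its markers. In the DIO group the 8 hepatocyte genes added up to 98193 to 104423 CPM (counts scaled to a common library total). In the DIO + DHA group they added up to 111592 to 125011 CPM. The higher sum was not shared by all 8, of which 3 were higher, 2 (Cyp2e1 and Serpina1c) lower and 3 not called. Among the higher ones, mean Fabp1 went from 15067 to 22355 CPM and mean Apoa1 from 9287 to 13316 CPM. Genes of other tissues were also read, and they separated the groups. The 12 skeletal muscle genes summed to 33.7 to 37.7 CPM in the DIO libraries and to 1317 to 1402 CPM in the DIO + DHA libraries, and all 12 were higher in the DIO + DHA group. The 10 genes of stratified squamous epithelium summed to 40.03 to 45.01 against 118.3 to 137.8 CPM, with Krt13, Krt5, Krt14, Krt6a, Lgals7 and Dsg3 at 0 in all DIO libraries. The 13 macrophage and Kupffer cell genes summed to 717.6 to 793.5 against 375.4 to 421.7 CPM, and 11 of the genes were lower and 1, the scavenger receptor gene Marco, was higher (log2 fold change 0.66, SE 0.13, edgeR adjusted p = 1.09e-04). Each of these sums differed between the groups in an exact two-sided permutation test (p = 0.0179, adjusted p = 0.0179 over 6 lists, the smallest value that the 56 splits of 8 libraries allow). The 6 lists were chosen with earlier results of these data known, so these p-values describe the separation and are no independent test of it. Without DIO replicate 5 these sums had an adjusted exact permutation p of 0.0571, where 2 against 5 libraries cannot give a p below 0.0476, and their differences were close to those over all libraries, at 1309 and 1310 CPM for skeletal muscle and -324.6 and -347.4 CPM for macrophages. The part of these other cells in the results that follow was not tested, and in bulk liver fewer cells of a type and less RNA per cell cannot be told apart.

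Of the 9 genes of the set that were tested, 5 rose and 2 fell with DHA and 2 were not called, while Cideb had too few counts. A call means an adjusted p under 0.05 in edgeR's quasi-likelihood test, adjusted over the 12412 genes tested. By this rule 15.2% of all tested genes were called, 7.89% as higher and 7.28% as lower. For 8 of the 9 tested members the libraries of the groups did not overlap at all, which was so for 18.4% of all tested genes. The limma-voom test with a log-odds B above 0 called 6.93% of genes, and under it 4 members were higher and 2 lower. Expression is given below as CPM after TMM scaling, in the order DIO replicates 1, 4 and 5 and then DIO + DHA replicates 1, 2, 4, 5 and 6. CPM of different genes are not compared with each other, since the counts come from 3′ ends and were not divided by length. A log2 fold change is the fitted DIO + DHA level over the DIO level, so that positive values mean higher expression in the DIO + DHA group.

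**Figure D1:**
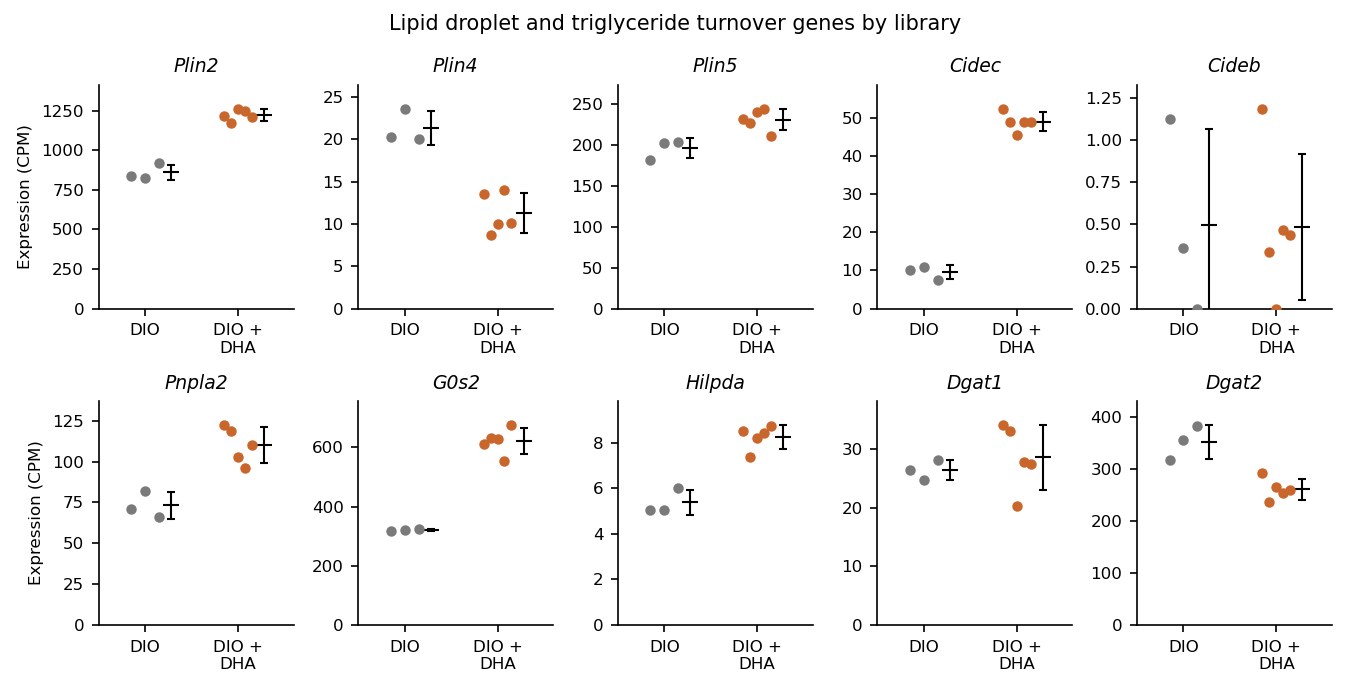
Expression of the 10 genes in CPM (vertical axes, each from 0) in every library, with DIO in grey and DIO + DHA in orange, beside the mean and SD of each group (n = 3 and n = 5). The groups separate for all genes except Cideb and Dgat1, and Plin4 and Dgat2 are the ones in which the DIO + DHA libraries lie lower.

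Cidec showed the largest difference of the set. Its protein, also known as fat-specific protein 27, gathers at contacts between droplets and lets lipid pass from the smaller to the larger, and its RNA is abundant in fat cells and in steatotic liver. The gene lies at chr6:113401595-113412721 on the minus strand (GRCm39). CPM of Cidec was 10.1, 11 and 7.45 in the DIO libraries and 52.4, 48.9, 45.3, 48.9 and 48.9 in the DIO + DHA libraries. The lowest DIO + DHA library was thus far above the highest DIO library. The fitted log2 fold change was 2.39 (SE 0.14), which is a 5.23-fold difference with a 95% interval of 4.29 to 6.37, and edgeR's quasi-likelihood test gave an adjusted p of 1.25e-20. In the order of p-values over all tested genes it held rank 39, and only 1.59% of them reached its absolute log2 fold change. The DIO level rests on 18, 61 and 42 counts, and its coefficient of variation of 19.4% was close to the 17.9% that counting error alone would give. In the DIO + DHA group the coefficient of variation was 5.10%, under the 7.45% of counting error.

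Promoter windows, taken from RefSeq (assembly GRCm38.p6, placed on GRCm39 by exact match), were found for 8 of the 10 genes. They hold 250 bases before and 50 bases after an annotated transcript start. Dgat1 and Dgat2 had no entry. The windows of Cidec, Plin2 and G0s2 are printed because these genes carried the 3 smallest p-values of the set, and all of them were higher in the DIO + DHA group. Each is written 5′ to 3′ on the strand of the gene. Capitals mark, on either strand, AGGNCANAGGNCA (the direct repeat bound by PPAR with RXR), AGGTCA (the hexamer of nuclear receptors), CACGTG (an E-box), TCACNCCAC (a sterol regulatory element), CCAAT (bound by NF-Y), TATAAA (bound by the TBP factor) and GGGCGG (the GC box bound by Sp factors). The hypoxia core ACGTG was searched too, and overlaps CACGTG.
Cidec, start at the end of the annotated gene, chr6:113412672-113412971: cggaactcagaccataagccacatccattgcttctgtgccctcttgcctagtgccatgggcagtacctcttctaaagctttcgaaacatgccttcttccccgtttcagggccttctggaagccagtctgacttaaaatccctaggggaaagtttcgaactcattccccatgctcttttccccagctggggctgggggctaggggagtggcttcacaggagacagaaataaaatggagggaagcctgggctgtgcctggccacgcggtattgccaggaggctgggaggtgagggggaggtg
Cidec, inner start, chr6:113411676-113411975: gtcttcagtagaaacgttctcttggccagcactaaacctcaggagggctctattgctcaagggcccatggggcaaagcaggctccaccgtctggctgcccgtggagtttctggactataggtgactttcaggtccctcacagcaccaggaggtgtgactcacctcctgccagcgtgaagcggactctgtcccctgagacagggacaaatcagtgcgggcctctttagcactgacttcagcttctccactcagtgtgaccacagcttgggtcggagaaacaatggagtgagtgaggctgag
Plin2, chr4:86588247-86588546: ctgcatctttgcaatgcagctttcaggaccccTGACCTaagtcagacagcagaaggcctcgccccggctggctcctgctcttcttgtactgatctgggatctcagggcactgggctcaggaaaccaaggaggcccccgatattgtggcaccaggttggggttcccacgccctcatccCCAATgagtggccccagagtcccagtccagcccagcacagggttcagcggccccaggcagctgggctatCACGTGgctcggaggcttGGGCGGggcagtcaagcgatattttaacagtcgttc
G0s2, chr1:192955447-192955746: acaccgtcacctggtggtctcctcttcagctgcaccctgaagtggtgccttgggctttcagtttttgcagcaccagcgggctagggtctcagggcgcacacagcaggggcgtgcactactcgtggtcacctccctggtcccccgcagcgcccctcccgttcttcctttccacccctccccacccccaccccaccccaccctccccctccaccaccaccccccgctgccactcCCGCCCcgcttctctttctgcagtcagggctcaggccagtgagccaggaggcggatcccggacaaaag
Neither Cidec window held any of the 8 letter patterns, and so no capitals appear in it. The Plin2 window held an AGGTCA on the opposite strand 218 bases before the start, CCAAT 73 bases before it, CACGTG from 4 bases before it and GGGCGG from 14 bases after it. The G0s2 window held a GC box alone, 18 bases before the start on the opposite strand. Over the 11 windows of the 8 genes, AGGNCANAGGNCA occurred in 0, against 0.381% of all 32851 windows in the table. AGGTCA occurred in 3 of the 11 windows, from 2 of the 8 genes (Plin2 and Plin5), against 16.3% of all windows. GGGCGG occurred in 8 windows, from 6 of the genes, against 35.7%. The windows of Plin5 overlap each other, as do those of Hilpda, and a GC box of Plin5 was read in both of its windows. CACGTG was found in 1 of the 11 windows and in 7.15% of all, ACGTG in 2 and in 19.6%, CCAAT in 3 and in 37.4%, and TATAAA, in Cideb, in 1 and in 13.6%. TCACNCCAC was in 0 of the 11 windows and in 1.24% of all. A match of letters is a description of the sequence, and its absence says only that these letters are not in the window.

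Cidec is also a gene of fat cells, and RNA of fat cell genes was higher in the DIO + DHA libraries. Of the 12 genes on the adipocyte list, 9 were tested, 6 were higher and 0 lower. Plin1, Lep and Aqp7 were at 0 in all DIO libraries and too low to test in both groups. Adiponectin (Adipoq), the hormone that defines fat cells, was read at 1.69, 0 and 0.355 CPM in the DIO libraries and at 1.19, 6.70, 7.85, 2.81 and 3.49 CPM in the DIO + DHA libraries. The 2 groups overlapped in Adipoq, because DIO + DHA replicate 1 lay below DIO replicate 1. That same DIO + DHA library had the highest Cidec of all 8. Within the group, however, the spread of Cidec (5.10%) was under counting error (7.45%), and Adipoq rests on 6 to 22 counts per library. The order of these libraries in Cidec can thus not be read. Adipsin (Cfd) was 1.13, 2.16 and 0.887 CPM against 36.3, 32.2, 40.3, 31.9 and 26.2 CPM. Ucp1, the uncoupling protein of brown fat, was at 0 in all DIO libraries and at 2.85 to 5.03 CPM in the DIO + DHA libraries. All 5 tested genes of the brown adipocyte list were higher, and the list of 6 summed to 24.5 to 28.7 against 124.1 to 150.5 CPM (exact two-sided permutation p = 0.0179). Ucp1 and Cidea, the latter at 1.98 to 3.35 CPM in the DIO + DHA libraries, were a small part of that sum. Skeletal muscle genes were higher in the same libraries, and the part of muscle RNA in the brown adipocyte sum was not tested. The adipocyte list summed to 1053 to 1153 against 1174 to 1285 CPM (exact two-sided permutation p = 0.0179). Most of that sum was Car3, which is also expressed in liver and whose log2 fold change was -0.03 (SE 0.06). The adipocyte difference of 94.1 CPM lost its call without TMM scaling, at 74.4 CPM (adjusted exact permutation p = 0.161), and without DIO replicate 5, at 65.4 CPM (adjusted exact permutation p = 0.143). The part of fat cell RNA in the Cidec difference was not tested.

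**Figure D2:**
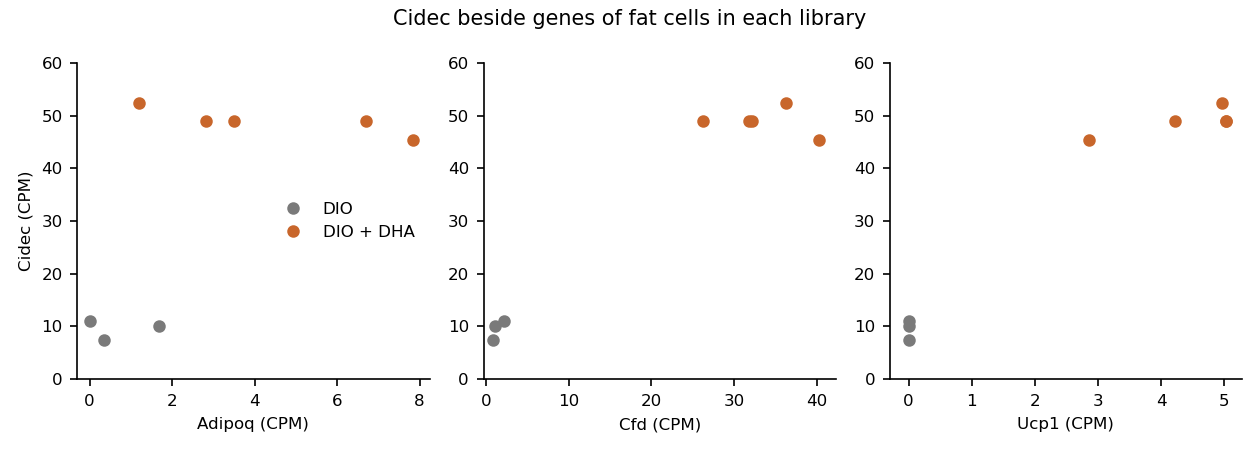
Cidec (vertical axis, CPM) against Adipoq, Cfd and Ucp1 (horizontal axes, CPM) in each library, 1 point per mouse. Within the DIO + DHA group Cidec lay between 45.3 and 52.4 CPM, a spread under its counting error. Adipoq ranged there from 1.19 to 7.85 CPM and rests on 6 to 22 counts per library.

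Plin2, the coat protein of most droplets in hepatocytes, was higher in the DIO + DHA group. The gene is at chr4:86566623-86588297 on the minus strand. Its CPM was 837, 824 and 916 in the DIO libraries and 1215, 1171, 1263, 1249 and 1212 in the DIO + DHA libraries, with no overlap. The difference was 0.51 on the log2 scale (SE 0.06), or 1.42-fold with a 95% interval of 1.30 to 1.55, at an adjusted p of 4.96e-09 in edgeR's quasi-likelihood test. Both groups were tight, with coefficients of variation of 5.82% and 2.94%.

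Plin5 and Plin4 lie next to each other on the minus strand of chromosome 17, with 1797 bases between them, at chr17:56418601-56424596 and chr17:56407591-56416803. Plin5, which holds droplets close to mitochondria in tissues that oxidize fatty acids, was read at 181.7, 202.9 and 203.9 CPM in the DIO libraries. In the DIO + DHA libraries it was 231.9, 227.2, 240.1, 244.5 and 211.2 CPM. No DIO + DHA library fell below a DIO library, but the distance between the highest DIO and the lowest DIO + DHA value was small. The log2 fold change was 0.23 (SE 0.07), the smallest of the called members, with an adjusted p of 0.0273 in edgeR's quasi-likelihood test. This call did not hold at a log-odds B above 0 in limma-voom, nor without DIO replicate 1 (edgeR adjusted p = 0.133), DIO + DHA replicate 1 (0.0639), replicate 4 (0.0876) or replicate 5 (0.0719). Its neighbour moved the other way.

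Plin4, a perilipin found mostly in fat and muscle, was lower in the DIO + DHA group. It gave 20.3, 23.6 and 20.1 CPM in the DIO libraries and 13.5, 8.71, 9.99, 14.1 and 10.05 CPM in the DIO + DHA libraries. All 5 of the latter were under the lowest DIO library. The log2 fold change was -0.90 (SE 0.16), with a 95% interval of -1.23 to -0.58 and an adjusted p of 1.86e-05 in edgeR's quasi-likelihood test. The summed muscle and brown fat genes were higher in the same libraries, and their part in the level of Plin4 was not tested. Leaving out any single library kept the log2 fold change of Plin4 between -0.996 and -0.798.

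Cideb, the CIDE protein of hepatocytes that takes part in the lipid loading of VLDL, could not be measured. Its counts were 2, 2 and 0 in the DIO libraries and 6, 1, 0, 2 and 2 in the DIO + DHA libraries. Of the 1488 exon bases of Cideb (chr14:55991507-55995915, minus strand), 83.5% are shared with genes on the opposite strand, mainly Nop9, and so are all of the last 500 bases from which a 3′ library takes its reads. Counting ignored the strand and dropped reads in exons that several genes cover. The low count is thus a value for the part of Cideb that no other gene covers, and no level of the gene can be read from it.

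The lipase gene and that of its inhibitor G0s2 were higher in the DIO + DHA group, while Hilpda was not called. Pnpla2 encodes adipose triglyceride lipase, the enzyme of the first step of triglyceride breakdown, at chr7:141035111-141040656 on the plus strand. Its CPM was 70.9, 82.2 and 66.4 in the DIO libraries and 122.4, 119.0, 103.1, 96.0 and 110.3 in the DIO + DHA libraries. Every DIO + DHA library exceeded every DIO library. The log2 fold change was 0.59 (SE 0.09), with a 95% interval of 1.32-fold to 1.70-fold, at an adjusted p of 1.54e-06 in edgeR's quasi-likelihood test.

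G0s2 encodes a small protein that binds the lipase and blocks it, and lies at chr1:192954469-192955525 on the minus strand. It was read at 316.7, 322.6 and 324.7 CPM in the DIO libraries, a coefficient of variation of 1.29%, and at 611.2, 631.4, 629.0, 554.1 and 675.9 CPM in the DIO + DHA libraries. The groups were far apart. The log2 fold change of 0.95 (SE 0.07) was the second largest rise of the set, 1.93-fold with a 95% interval of 1.75 to 2.13, and edgeR's quasi-likelihood test gave an adjusted p of 9.64e-17.

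Hilpda, which encodes a second inhibitor of the lipase that is induced by hypoxia and by fatty acids, lies at chr6:29272487-29275445 on the plus strand. CPM of Hilpda was 5.06, 5.05 and 6.03 in the DIO libraries and 8.53, 7.37, 8.21, 8.43 and 8.74 in the DIO + DHA libraries. The groups did not overlap, yet the test did not call the gene. The fitted value was 0.60 on the log2 scale (SE 0.22), with a 95% interval of 0.15 to 1.05 and an adjusted p of 0.0584 in edgeR's quasi-likelihood test. Each library held 9 to 43 counts of Hilpda, and for such counts the coefficient of variation from counting error alone is 24.2% (DIO) and 18.2% (DIO + DHA), more than the 10.5% and 6.40% observed. At this depth the difference did not pass the threshold, and the adjusted p stayed between 0.0552 and 0.229 over the alternatives.

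The DGAT enzymes, which are unrelated in sequence, join the last fatty acid to diacylglycerol. Dgat2 was called as lower and Dgat1 was not called, and the test of their ratio is given further on. Dgat2, the enzyme linked to newly made fatty acids, is at chr7:98802865-98831926 on the minus strand. It was read at 318.4, 356.8 and 382.9 CPM in the DIO libraries and at 292.4, 237.3, 265.1, 253.4 and 260.5 CPM in the DIO + DHA libraries. All DIO + DHA values were below the lowest DIO value, that of replicate 1. Dgat2 fell by 0.44 on the log2 scale (SE 0.07), with a 95% interval of -0.58 to -0.29 and an adjusted p of 4.97e-06 in edgeR's quasi-likelihood test.

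Dgat1, the enzyme linked to fatty acids taken up from outside the cell, lies at chr15:76386215-76396153 on the minus strand. Its CPM was 26.4, 24.7 and 28.2 in the DIO libraries and 34.1, 33.2, 20.3, 27.9 and 27.5 in the DIO + DHA libraries. The DIO + DHA group held both the highest and the lowest value of all 8 libraries, and its coefficient of variation of 19.3% exceeded the 9.98% of counting error. The log2 fold change of 0.13 (SE 0.13) was not called (edgeR adjusted p = 0.620), and its 95% interval of -0.14 to 0.39 leaves room for a modest change in either direction.

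**Figure D3:**
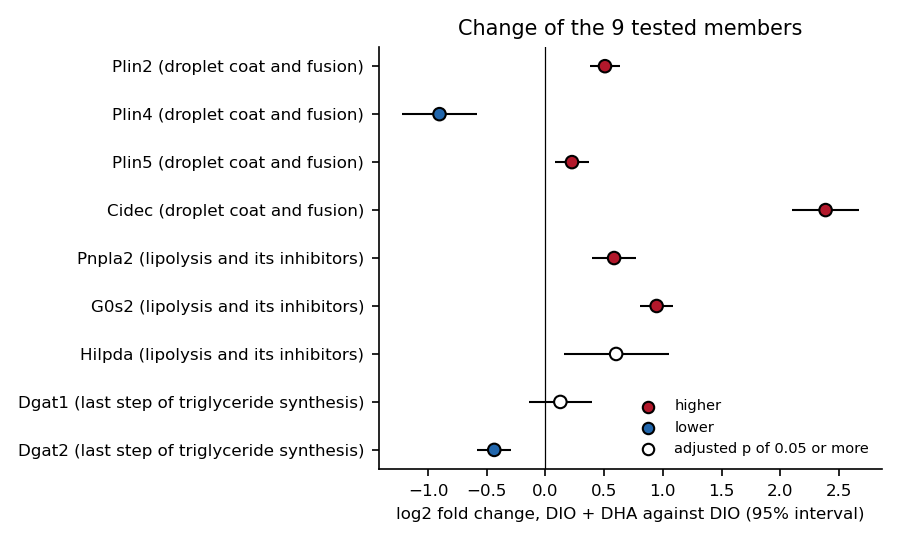
Fitted log2 fold changes of the 9 tested genes (horizontal axis, DIO + DHA over DIO) with 95% intervals, from Cidec at 2.39 to Plin4 at -0.90. The interval of Dgat1 includes 0, and that of Hilpda does not although its adjusted p was 0.0584.

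Ratios of a pair of members within a library do not depend on how libraries are scaled, and 6 pairs were compared by exact two-sided permutation tests with Benjamini-Hochberg adjustment over the 6. The question here is whether partners in droplet turnover changed in proportion. The pairs were drawn from members chosen with earlier results of these data known. Their p-values thus describe the separation and are no independent test of it. The log2 ratio of G0s2 to Pnpla2 was 2.15, 1.97 and 2.28 in the DIO libraries and 2.32, 2.40, 2.60, 2.52 and 2.61 in the DIO + DHA libraries. The inhibitor was thus higher relative to the lipase in every DIO + DHA library, by 0.36 on the log2 scale (exact permutation p = 0.0179, adjusted p = 0.0357). The ratio of Hilpda to Pnpla2 did not separate the groups, with means of -3.65 ± 0.27 (SD, n = 3) and -3.66 ± 0.19 (SD, n = 5) and an adjusted exact permutation p of 0.964.

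The Plin2 to Plin5 ratio was 2.20, 2.02 and 2.17 in the DIO libraries and 2.39, 2.36, 2.39, 2.35 and 2.52 in the DIO + DHA libraries. It was higher by 0.27 on the log2 scale in the DIO + DHA group, with no overlap (exact permutation p = 0.0179, adjusted p = 0.0357). The Plin5 to Pnpla2 ratio was lower by 0.35 on average, with overlapping groups (exact permutation p = 0.0536, adjusted p = 0.0804). The Dgat2 to Dgat1 ratio fell from a mean of 3.71 ± 0.13 (SD, n = 3) to 3.19 ± 0.31 (SD, n = 5) without passing the test (adjusted exact permutation p = 0.0857), and DIO + DHA replicate 4 lay within the DIO range at 3.67. The Cidec to Cideb ratio differed by 2.27 (adjusted exact permutation p = 0.0357), but with 0 to 6 counts of Cideb in a library it adds nothing to Cidec itself. With a prior count of 0.5 in place of 2, the adjusted p of the G0s2 to Pnpla2 and Plin2 to Plin5 ratios became 0.0536 at the same size of difference, because the p of the Cidec to Cideb ratio rose. Adjusted over the 5 other pairs, an alternative added after seeing the data, it was 0.0446 with either prior count. Without any 1 of the 8 libraries the adjusted p of these 2 ratios was above 0.05 as well, and there the smallest p a split can give is 0.0286 or 0.0476.

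**Figure D4:**
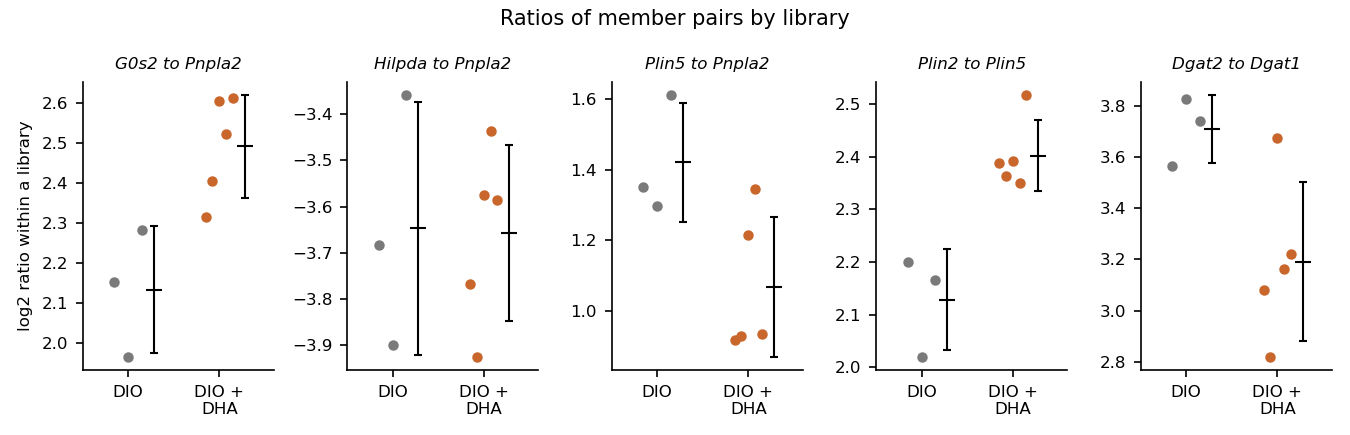
Log2 ratios of 5 pairs of members within each library (vertical axes, which do not start at 0), with mean and SD per group (n = 3 and n = 5). G0s2 to Pnpla2 and Plin2 to Plin5 separate the groups, with every DIO + DHA library above every DIO library.

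The other genes of the pathway were read from 6 lists with 80 genes, of which 76 were tested. With DHA, 22 of them rose and 7 fell, and 47 were not called, beside the 7.89% and 7.28% of all tested genes. The number that were lower depended on the setting. It was 4 without DIO replicate 4, DIO replicate 5, DIO + DHA replicate 1 or DIO + DHA replicate 2. The median log2 fold change over the 76 was 0.04, and over all 12412 tested genes it was 0.00. From each list the 3 called genes with the smallest p and the gene with the highest mean CPM are named, the latter as a rule for naming that says nothing of levels between genes, with their mean CPM ± SD in the DIO (n = 3) and DIO + DHA (n = 5) groups.

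Of 14 other droplet proteins, 12 were tested, 3 were higher and 1 lower, with a median log2 fold change of 0.01. Hsd17b11, a droplet-bound dehydrogenase, rose from 850 ± 41.3 to 1235 ± 92.6 CPM (edgeR adjusted p = 3.19e-09). Fitm2, a protein of the endoplasmic reticulum that helps droplets bud, rose from 47.5 ± 0.57 to 62.3 ± 1.64 CPM (edgeR adjusted p = 2.17e-03). Cidea, the CIDE protein of brown fat, had 2 counts in all DIO libraries together and 50 in the DIO + DHA libraries. Over the summed effective library sizes of each group these counts give a ratio of 16.5, with an exact 95% counting interval of 4.32 to 139.7 (edgeR adjusted p = 2.28e-05), and the brown adipocyte list to which it belongs was higher in the same libraries. Plin1, the perilipin of fat cells, was not tested.

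Of 9 other genes of neutral lipid hydrolysis, 3 were higher and 1 lower, with a median log2 fold change of 0.05. Abhd6 and Mgll, both of which cleave monoacylglycerol, were higher at 93.2 ± 6.87 against 53.8 ± 3.25 CPM and at 471 ± 22.99 against 324 ± 17.4 CPM (edgeR adjusted p = 1.24e-09 and 1.05e-08). Lipa, the acid lipase of lysosomes, was 124 ± 3.91 against 80.6 ± 2.76 CPM (edgeR adjusted p = 2.34e-08). The lower gene, named outside the rule, was Ces1d, at 343 ± 15.2 against 462 ± 5.59 CPM (edgeR adjusted p = 8.67e-07). Abhd5, the activator of adipose triglyceride lipase, and Lipe, which encodes hormone-sensitive lipase, were not called. Both were named after their values were seen. Abhd5 had a log2 fold change of 0.03 (SE 0.19), and Lipe had 0.45 (SE 0.19) and an edgeR adjusted p of 0.120. Without DIO + DHA replicate 5, Lipe was called at 0.56 (edgeR adjusted p = 0.0395).

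Of 17 genes for the earlier steps of glycerolipid synthesis, 16 were tested, 4 were higher and 2 lower, with a median log2 fold change of 0.17. Lpin1, the phosphatidate phosphatase that supplies diacylglycerol, fell from 56.7 ± 3.84 to 39.1 ± 5.75 CPM (log2 fold change -0.52, SE 0.11, edgeR adjusted p = 1.92e-04). Its direction was that of Dgat2, which acts on the product. Of the acyltransferases that act before Lpin1, Agpat2 was higher at 262 ± 10.7 against 204 ± 18.1 CPM and Agpat3 at 226 ± 9.42 against 188 ± 5.66 CPM (edgeR adjusted p = 3.05e-04 and 7.24e-03). Gpd1, which makes glycerol 3-phosphate, was 404 ± 15.1 against 359 ± 30.6 CPM and was not called (edgeR adjusted p = 0.0994), except without DIO replicate 5 (edgeR adjusted p = 0.0183).

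Fatty acid uptake and activation was the list with the highest median log2 fold change of the 6, 0.43, and 7 of its 12 tested genes were higher and 1 lower. Fabp1, the fatty acid binding protein of liver, was 22355 ± 1656 against 15067 ± 725 CPM, and Acsl5, which joins fatty acids to coenzyme A, was 238 ± 14.5 against 156 ± 6.89 CPM (edgeR adjusted p = 2.22e-11 and 4.06e-09). Fabp4, the binding protein of fat cells and macrophages, was 44.4 ± 5.75 against 17.2 ± 2.38 CPM (edgeR adjusted p = 4.86e-12). It is itself among the 6 higher genes of the adipocyte list, and the summed macrophage genes were lower. The part of either cell type in the difference of Fabp4 was not tested.

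Of 14 genes for the assembly and export of VLDL, 3 were higher and 0 lower, with a median log2 fold change of 0.11. They were Mttp, the microsomal protein that loads triglyceride on apolipoprotein B, at 105 ± 5.53 against 68.1 ± 4.21 CPM, and its partner subunit P4hb, at 612 ± 29.5 against 514 ± 11.7 CPM (edgeR adjusted p = 7.77e-08 and 4.30e-03). The other was Apoc3, which slows the clearance of triglyceride-rich particles, at 5627 ± 411 against 4614 ± 130 CPM (edgeR adjusted p = 3.12e-04).

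Among 13 transcriptional regulators, 2 were higher and 2 lower, with a median log2 fold change of -0.13. Ppargc1a, a coactivator of genes for mitochondrial oxidation, was 34.7 ± 4.76 against 7.97 ± 1.24 CPM (log2 fold change 2.04, SE 0.16, edgeR adjusted p = 7.00e-16). It is also expressed in muscle and brown fat, whose genes were higher in the same libraries, and their part in its difference was not tested. Nr1h4, the bile acid receptor FXR, fell from 104 ± 3.98 to 78.8 ± 4.97 CPM (edgeR adjusted p = 3.18e-04). Klf15 was 56.6 ± 6.06 against 69.7 ± 2.07 CPM (edgeR adjusted p = 0.0234), and its call was lost without any 1 of DIO replicates 1, 4 and 5 and DIO + DHA replicates 1 and 2 (edgeR adjusted p from 0.0645 to 0.0847). Creb3l3, a liver regulator of triglyceride metabolism, was 561 ± 22.6 against 563 ± 31.9 CPM (log2 fold change -0.01, SE 0.07). The nuclear receptors Ppara and Pparg, named after their values were seen because PPAR is the known sensor of fatty acids upstream of Plin2 and Cidec, had log2 fold changes of -0.18 (SE 0.10) and -0.13 (SE 0.21). Neither was called (edgeR adjusted p = 0.251 and 0.768), but Ppara was called as lower without DIO replicate 1, at -0.29 (edgeR adjusted p = 0.0156).

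**Figure D5:**
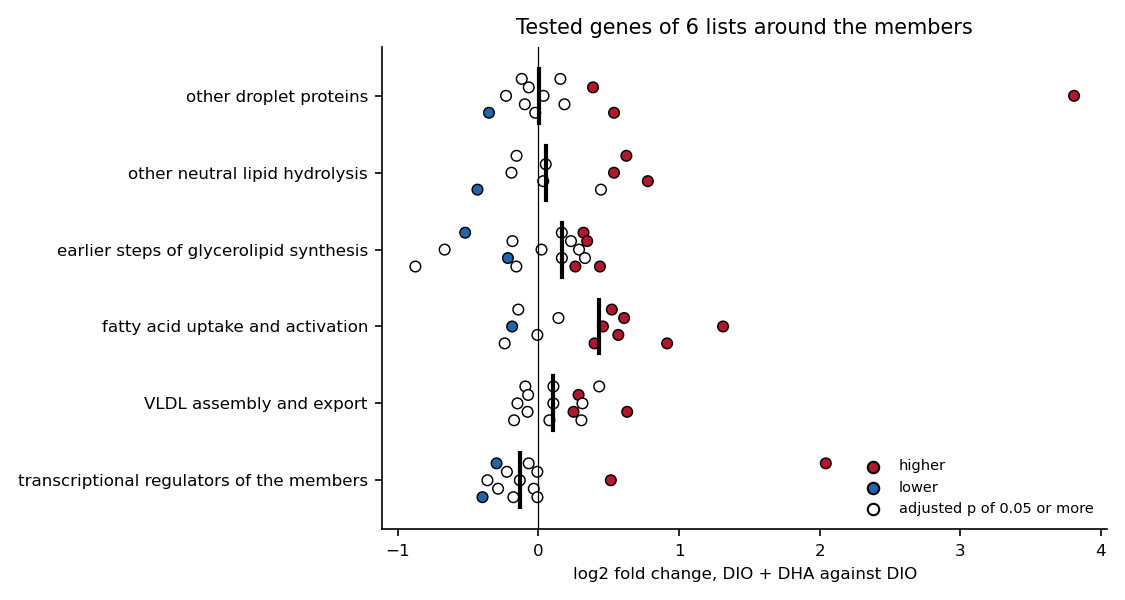
Fitted log2 fold changes (horizontal axis) of the 76 tested genes in 6 lists of the pathway, red where higher, blue where lower and open where the adjusted p was 0.05 or more, with black bars at the list medians. The median is highest for fatty acid uptake and activation, at 0.43, and the point at 3.81 is Cidea, which rests on 2 counts in the DIO group.

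The genes most like 4 of the members in pattern were found by Pearson's r of log2 CPM over the 8 libraries, among the 6224 genes that reached 10 CPM on average. Because each of these members separates the groups, r mostly repeats that separation, and it is given as a description. Cidec was closest to Ephx2 (r = 0.997), Fabp3 (0.996) and Cox7a1 (0.995). Cox7a1 is on the brown adipocyte list, and both that list and the skeletal muscle list were higher in the DIO + DHA libraries. Ephx2 and Fabp3 are on none of the marker lists, though Fabp3 is known from heart and muscle. The part of brown fat or muscle RNA in these patterns was not tested. Plin2 was closest to Hsd17b10 (r = 0.993), Agxt (0.992) and a gene without a name (0.992), Pnpla2 to 4833411C07Rik (r = 0.979), Lmbrd1 (0.973) and Utp11 (0.973), and Dgat2 to Ces1g (r = 0.988), Acot3 (0.986) and Nipsnap1 (0.979).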

How the data were processed

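Liver RNA of 3 DIO and 5 DIO + DHA mice was studied, grouped by the sample titles. The authors used barcoded oligo-dT priming with molecular identifiers and amplified cDNA enriched in 3′ ends. They checked reads with FastQC 0.11.8, aligned them after trimming (STAR 2.7.9a, GRCm39) and counted them over exons (featureCounts 1.6.0, GENCODE mouse release 33). Raw counts per gene were deposited. The counting commands in the file headers set no strand, multimapping or overlap option, so that counting was unstranded and ambiguous reads were left out. Collapse of molecular identifiers is not given in the sources used here, so counting errors may be too small.

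Genes were named by GENCODE mouse release 39. Following the study, genes with fewer than 5 counts in over 50% of a group's libraries, in both groups, were not tested. Counts were scaled by TMM and tested with edgeR 4.0.16 in R 4.3.3 (quasi-likelihood test, Benjamini-Hochberg adjustment, prior count of 2 for ratios). Libraries held 1723800 to 5690347 counts, and the common biological coefficient of variation was 0.0801. The p-values measure the spread between mice, 1 library each.

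The members and gene lists were chosen with earlier results of these data known. All members are named, with the 3 called genes of smallest p and the gene of largest mean CPM in each pathway list, and the 3 genes most like 4 members. Single marker genes and others outside this rule were named after their values were seen. Alternatives were other scaling, DESeq2 1.42.0, limma-voom 3.58.1 (the study's own test, B above 0), other filters, a replicate block and leaving out each library. The scripts were tested on simulated data. Replicate numbers 1, 4 and 5 occur in both groups.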

Additional observations from a re-analysis of the deposited data

Results flagged for a closer look

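In the DIO + DHA group, 22 sets of 5 values were checked for a library far from the others, and 2 were found, where chance gives about 1 in 20. The log2 ratio of Plin2 to Plin5 was 2.52 in DIO + DHA replicate 6 and 2.35 to 2.39 in the other libraries of the group, so that this library lay farther from the DIO group. The summed CPM of the adipocyte list was 1285 in DIO + DHA replicate 4 and 1174 to 1201 in the others. The same library had the highest Adipoq, 7.85 CPM, and the lowest Cidec of its group, 45.3 CPM. Cidec varied less within this group than counting error alone would give, so its order there can not be read.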

How the results depend on the processing

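Of the 9 tested members, 6 kept their call and direction under all 17 alternatives, Hilpda and Dgat1 were called under none of those in which they were tested, and Plin5 lost its call under 5. Without each library in turn, 4 to 5 members were higher and 2 lower. The number of pathway genes that were lower, 7, was 4 with DESeq2, 3 at B above 0 and 4 with the replicate block, and 4 to 7 without each library, whereas 20 to 23 were higher. With a prior count of 0.5 the log2 ratios of G0s2 to Pnpla2 (0.36), Plin2 to Plin5 (0.27) and Cidec to Cideb (2.18) no longer passed over 6 pairs, and the first and second passed over 5 pairs without Cidec to Cideb (adjusted p = 0.0446, added after seeing the data). Without each library they were 0.27 to 0.43, 0.22 to 0.31 and 1.88 to 2.53, and none passed, with fewer splits available. The adipocyte sum differed by 74.4 CPM without TMM. Without each library the sums differed by 65.4 to 115.2 CPM (adipocyte), 103.3 to 109.9 (brown adipocyte), 12435 to 16115 (hepatocyte), -362.5 to -324.6 (macrophage), 1296 to 1317 (skeletal muscle) and 84.7 to 89.5 (squamous epithelium), and all 6 lost their call without DIO replicate 5, where the smallest p is 0.0476. Of the pathway genes called, Fitm1, Fitm2, Agpat3, Lclat1, Lpin2, Gk, Slc27a5, P4hb, Klf15 and Nfil3 did not pass B above 0, and Klf15 (adjusted p = 0.0723), Lpin2, Slc27a5 and Nfil3 lost their calls with DESeq2. The shared replicate numbers did not pair the libraries, since deviations from the group means correlated at -0.03, -0.08 and -0.05 over 4188 genes. With the replicate block 5 members were higher and 2 lower, as without it, and of the pathway genes Klf15 (edgeR adjusted p = 0.105), Lclat1, Lpin2, Slc27a5 and Nfil3 lost their calls, while Pdia3 gained one.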
